A study of Mus musculus with 6 samples.

Results

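Genes of DNA repair and DNA damage signalling were followed in MIN6, a mouse insulinoma line that makes insulin, after siRNA against TDP-43. The 43 genes were taken by symbol from a fixed list. Each was represented by the brightest of the probe sets that name it alone, judged by the mean over all arrays. A value was found for 42 of them, among 12619 genes tested in all. Xrcc2 was not analysed here. All 42 had a mean signal above the 40% of probe sets that were left out for low values. Bccip and Wrnip1 were already known as strong decreases in these data when the list was drawn up, so their place in it is no independent evidence.

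DNA is damaged continually, and cells repair different lesions by different routes. Double-strand breaks are rejoined by end joining or copied from the sister chromatid by homologous recombination. Altered bases and single-strand breaks are handled by base excision repair, bulky lesions by nucleotide excision repair, replication errors by mismatch repair and crosslinks by the Fanconi anaemia pathway. The kinases ATM and ATR signal the damage to the cell cycle. TDP-43, encoded by Tardbp, is an RNA-binding protein that acts mainly in the nucleus on splicing and RNA stability.

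The design compared 2 groups of 3 arrays. MIN6 cells without a stated genetic change were electroporated with control siRNA in one group and with TDP-43 siRNA in the other, with 100 pmol of siRNA and a pulse of 1200 V for 20 ms in both groups. The siRNA sequences and the time from transfection to harvest are not given in the sources used here. The labels number the replicates 1 to 3 but do not say that they came from separate cultures, so p-values measure the spread between these samples, which may be technical. Values are signals on a linear scale, as deposited, and differences are log2(signal + 12) after TDP-43 siRNA minus control siRNA, which understates the change of dim probe sets. Signals of different probe sets were not tested against each other as levels. Brightness was used to choose probe sets and genes, to call some of them dim and to describe cell type markers. A ratio of 2 genes was used only to compare the same ratio between the groups. Each array reads RNA from many cells, so fewer cells of a kind and less RNA per cell cannot be told apart.

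Tardbp itself read 3748, 3940 and 3699 in control arrays and 2257, 2249 and 1836 after TDP-43 siRNA. The TDP-43 siRNA arrays all lay below the control arrays (log2 difference -0.85, SE 0.08, n = 3 per group, limma adjusted p = 0.00187). When variances were not fitted to intensity, the limma adjusted p was 0.0608 and the call was lost. The labelled cell type was checked on beta cell markers. Of 8 listed, 6 were tested, with signals from 1615 for the lowest Nkx6-1 array to 23354 for the highest Iapp array. The insulin gene Ins2 read 6918 to 8372, and Ins1 and Mafa had no probe set that names them alone. None of the 6 tested passed the threshold in limma, and 1 had an unadjusted p below 0.05. Of 18 markers of other islet, exocrine, stromal and immune cells, 10 were tested, 0 passed and 3 had an unadjusted p below 0.05. The alpha cell hormone gene Gcg read 7345 to 10654 on the 6 arrays and Irx2, also an alpha cell gene, 367 to 404. The other 8 read between 9.92 and 191.

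Bccip and Wrnip1 are shown first by their promoters, because they were the only list members past the threshold. The start of Bccip also lies 38 bases from a start of another gene. Each sequence is the 250 bases before the gene's start in RefSeq, mouse build GRCm38.p6, plus strand, written 5′ to 3′ in the direction of the gene. Bccip lies at chr7:133709083-133709332 and Wrnip1 at chr13:32801780-32802029. Capitals mark matches to 4 motifs, chosen after the sequences were looked at and searched on both strands. GGGCGG is the GC box, bound by Sp1 and its relatives. The CCAAT box is bound by NF-Y. CCGGAA is the core bound by ETS factors. TACANTTCC stands for the central letters of the element bound by ZNF143 and THAP11. No matches overlapped in either window.
Bccip: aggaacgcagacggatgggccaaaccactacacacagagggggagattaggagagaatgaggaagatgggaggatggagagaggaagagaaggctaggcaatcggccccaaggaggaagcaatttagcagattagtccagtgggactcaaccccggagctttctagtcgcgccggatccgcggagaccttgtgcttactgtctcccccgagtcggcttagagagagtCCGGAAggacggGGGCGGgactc
Wrnip1: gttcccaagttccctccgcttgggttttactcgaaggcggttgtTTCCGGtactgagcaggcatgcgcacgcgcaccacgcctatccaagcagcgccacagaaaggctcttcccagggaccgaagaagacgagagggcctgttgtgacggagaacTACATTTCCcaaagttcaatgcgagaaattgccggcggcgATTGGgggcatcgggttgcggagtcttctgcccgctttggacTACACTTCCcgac

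The windows differ in what they hold. Bccip has an ETS core 23 to 18 bases before the start and a GC box 11 to 6 bases before it, and no match to the other motifs. Both matches lie between this start and a start of Uros on the opposite strand, 38 bases before it. They are thus not particular to Bccip. Wrnip1 has 1 ETS core and 1 CCAAT box, both on the minus strand, and 2 matches to the ZNF143 and THAP11 letters on the plus strand, at 95 to 87 and at 13 to 5 bases before the start. Among all 32851 RefSeq windows of this length, which include those of noncoding genes, 32.7% hold a GC box, 33.8% a CCAAT box, 12.0% an ETS core and 1.67% the ZNF143 and THAP11 letters, with 2 or more matches to these in 0.0578%. Among the 39 windows found for 35 genes of the list, the shares were 69.2%, 46.2%, 35.9% and 2.56%. The only list window with the ZNF143 and THAP11 letters was that of Wrnip1. This motif was chosen after that sequence was seen, so its share and its rarity are no independent evidence. A match describes letters only and shows no binding.

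Bccip encodes a nuclear protein that binds BRCA2 and the cell cycle inhibitor p21. Its probe set, 1448542_at, read 3255, 3254 and 2916 in control arrays and 1637, 1556 and 1403 after TDP-43 siRNA. The lowest control array thus lay well above the highest TDP-43 siRNA array. The mean fell from 3142 ± 196 to 1532 ± 119 (SD, n = 3 each), which is 48.8% of control. The log2 difference was -1.03 (SE 0.08, limma adjusted p = 0.00107). Its 95% confidence interval ran from -1.21 to -0.86. No second probe set that names Bccip alone was found, so the fall rests on 1 probe set.

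Wrnip1 encodes an ATPase that binds the Werner helicase and acts at stalled replication forks. Probe set 1448376_at read 1805, 1944 and 1804 in control arrays and 1036, 958 and 848 after TDP-43 siRNA, again with no overlap between the groups. The mean fell from 1851 ± 80.7 to 947 ± 94.7 (SD, n = 3 each), or 51.2% of control. On the log2 scale this was -0.96 (SE 0.09, limma adjusted p = 0.00107), and the 95% confidence interval ran from -1.15 to -0.77. The other probe set of Wrnip1, 1429638_at, read between 17.9 and 42.1 on all arrays and lay below the filter. Bccip and Wrnip1 passed in all 18 alternative analyses, with adjusted p from 0.000554 to 0.0416.

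For the genes beside Bccip on the chromosome, Uros and Dhx32, the confidence intervals left out a fall of the size seen for Bccip. Each has 2 probe sets that name it alone, and the values here are those of the brightest only. These genes were looked up after the fall was known. Uros, an enzyme of haem synthesis, has a start on the opposite strand 38 bases before that of Bccip, and the RefSeq windows of the pair, which run from 250 bases before to 50 after each start, overlap by 137 bases. A second RefSeq start of Uros lies 6833 bases before that of Bccip, and its window does not overlap the Bccip window. Which of these starts the Uros signal comes from was not tested. Uros read 789, 1036 and 881 in control arrays and 905, 762 and 956 after TDP-43 siRNA, so its groups overlapped. The difference on the log2 scale was -0.04 (SE 0.12, limma adjusted p = 0.925), and its 95% confidence interval ran from -0.30 to 0.22. Dhx32, a helicase gene that lies next to Bccip on its other side, was at -0.02 with an interval from -0.20 to 0.17. Within each array, the log2 ratio of Bccip to Uros was lower by a mean difference of -0.99 after TDP-43 siRNA, and that of Bccip to Dhx32 by -1.02. Each ratio had a two-sided exact permutation p = 0.1, which is the smallest that 3 arrays against 3 can give. Bccip was already known to be lower, with separate groups, so the separation of these ratios is no independent evidence. The genes beside Wrnip1, Mylk4 and Serpinb1a, lay below the filter on low values.

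**Figure D1:**
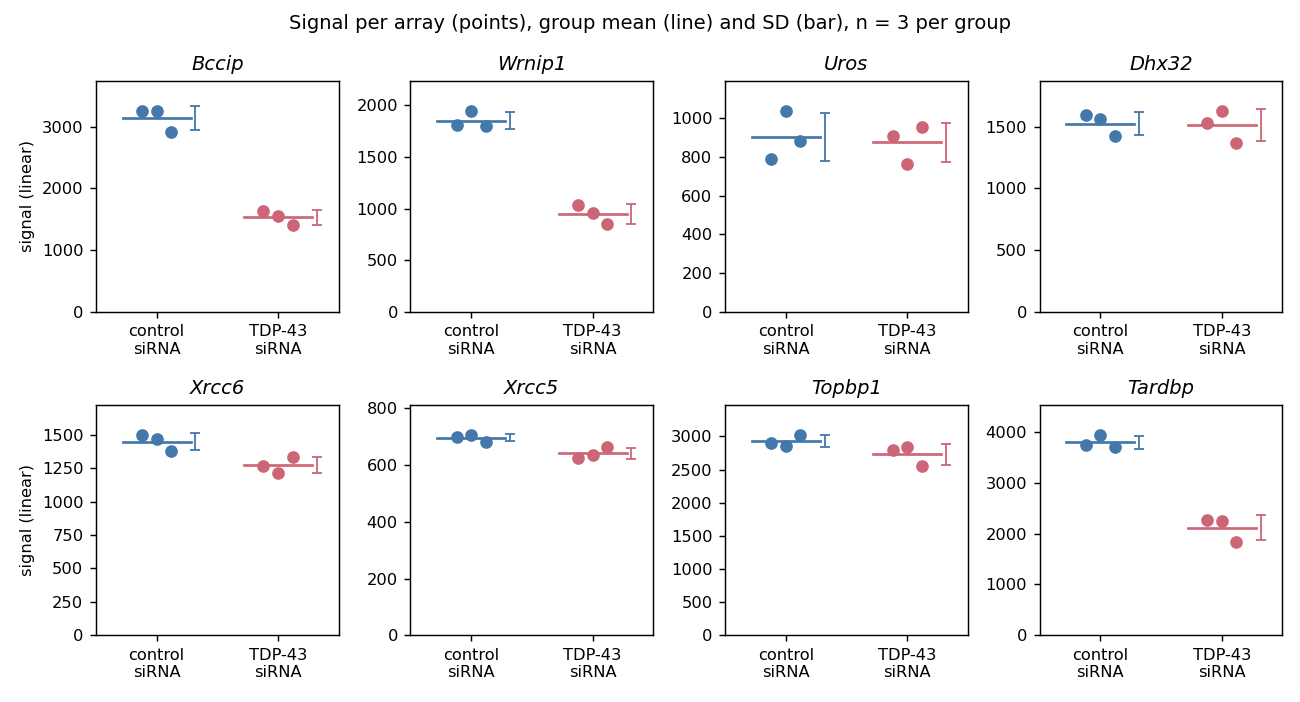
Signal per array on a linear scale from 0 for 7 genes and for Tardbp, with 3 control siRNA arrays (blue) and 3 TDP-43 siRNA arrays (red); points are arrays, lines are group means and bars are SD. Bccip, Wrnip1 and Tardbp show wide gaps between the groups, Xrcc6, Xrcc5 and Topbp1 narrow ones, and the Bccip neighbours Uros and Dhx32 overlap.

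Of the 42 genes, 2 passed the threshold lower after TDP-43 siRNA (4.76%), against 0.578% of all genes. None passed higher, against 0.166% of all genes, and the share of all genes past the threshold in either direction was 0.745%. Over all genes the balance of 73 lower and 21 higher turned to 112 lower and 141 higher without control replicate 3. The 2 are Bccip and Wrnip1, which were known beforehand, so their share shows nothing about repair genes in general. Without them, 40 genes remained, of which 1 had an unadjusted p below 0.05 in limma, against 12.6% of all genes. Their log2 differences ran from -0.34 to 0.17 with a median of -0.04, beside 0.02 over all genes tested. For 34 of the 40 the 95% confidence interval lay within 0.5 of 0 on either side, and 70.3% of all genes had such an interval. The 6 with wider intervals were Bard1, Rad52, Rad54l, Xrcc3, Ogg1 and Ddb2.

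Groups that did not overlap were found for 5 of the 42 genes (11.9%), all lower after TDP-43 siRNA. Of all genes, 8.32% were separate in that direction. The 5 were Bccip, Wrnip1, Topbp1, Xrcc5 and Xrcc6. Without Bccip and Wrnip1, which were known beforehand, 3 of 40 genes were separate (7.5%), near the share of all genes. No gene of the list was separate in the higher direction, where 9.98% of all genes were.

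**Figure D2:**
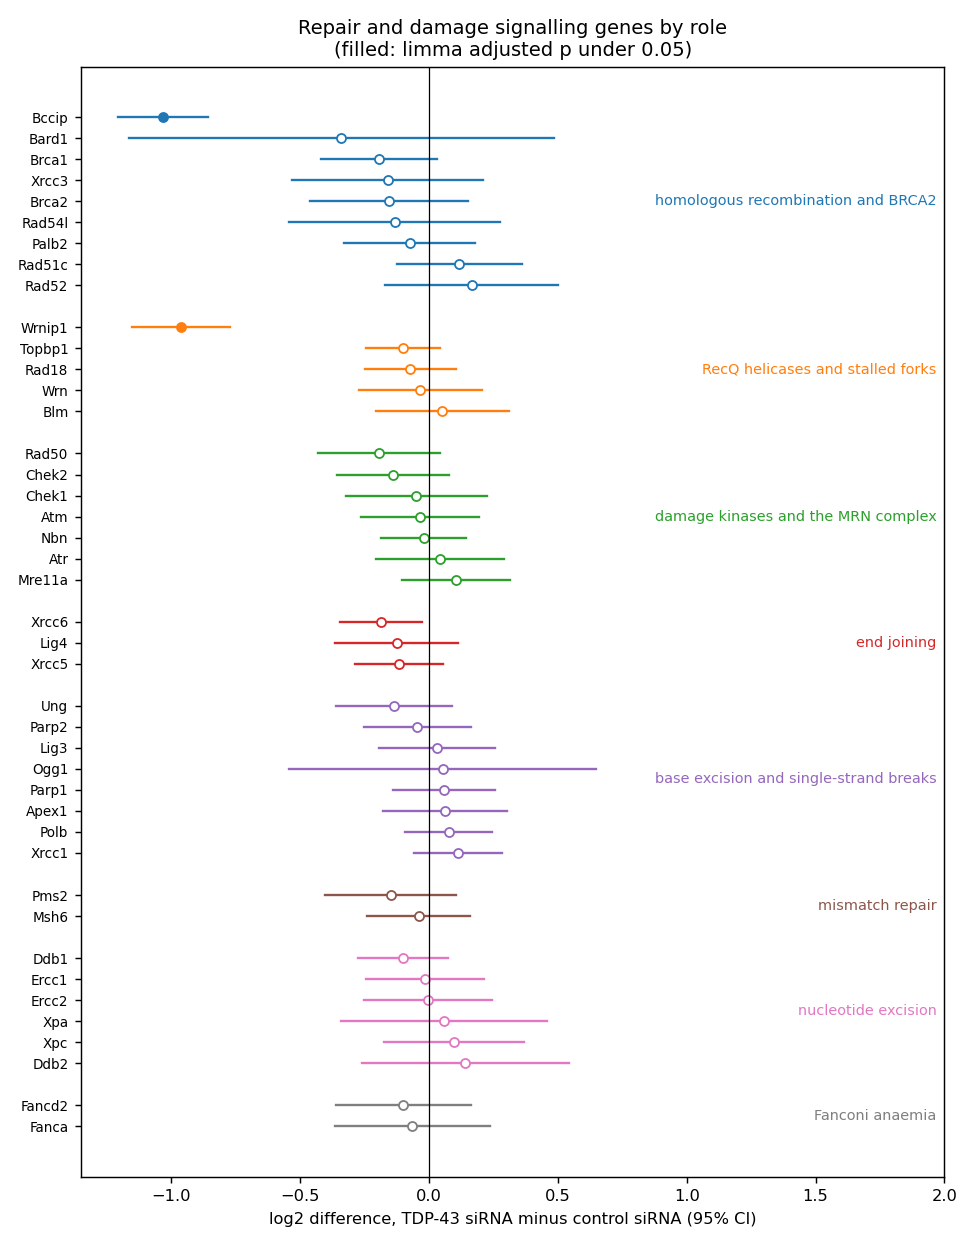
Log2 difference after TDP-43 siRNA minus control siRNA for the 42 genes, grouped by role, with the 95% confidence interval of the limma fit (n = 3 per group); filled points passed an adjusted p of 0.05. Bccip at -1.03 and Wrnip1 at -0.96 stand apart from the other 40 genes, which lie between -0.34 and 0.17.

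Homologous recombination genes other than Bccip did not pass. Among the 8 others tested, Brca1, the ubiquitin ligase subunit that steers breaks towards recombination, read 1235, 1203 and 1059 in control arrays and 1045, 1121 and 892 after TDP-43 siRNA. The groups overlapped (log2 difference -0.19, SE 0.10, limma adjusted p = 0.462). Brca2, the partner of Bccip, read 463, 385 and 410 in control arrays and 399, 434 and 303 after TDP-43 siRNA. Its difference was -0.15, with a 95% confidence interval from -0.46 to 0.15, which leaves out a fall of the size seen for Bccip. Palb2, which bridges BRCA1 and BRCA2, was at -0.07, and Bard1, the partner of BRCA1, at -0.34. Bard1 was dim, with signals from 17.7 to 75.5. Its 95% confidence interval ran from -1.16 to 0.49, and its difference was 0.04 without TDP-43 siRNA replicate 3. Rad51c was at 0.12 and Xrcc3, which acts with it, at -0.16. Rad52, which anneals single strands, was at 0.17, and Rad54l, a DNA translocase, at -0.13.

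At replication forks, Topbp1, the activator of ATR, read 2905, 2855 and 3025 in control arrays and 2800, 2834 and 2555 after TDP-43 siRNA. The groups did not overlap, but the gap between them was narrower than the spread within either (log2 difference -0.10, SE 0.06, limma adjusted p = 0.559). The Werner helicase gene Wrn, whose product Wrnip1 binds, had overlapping groups on its brightest probe set. It read 240, 229 and 219 in control arrays and 221, 225 and 225 after TDP-43 siRNA. The difference of -0.03 had a 95% confidence interval from -0.27 to 0.20. The dimmest probe set of Wrn, 1425982_a_at, read 90.1, 82.8 and 82.3 in control arrays and 68.6, 76.5 and 61.4 after TDP-43 siRNA. Its groups did not overlap (log2 difference -0.27, SE 0.18, limma adjusted p = 0.616 over probe sets), and the third probe set of Wrn was at -0.03. Blm, the Bloom helicase, was at 0.05, and Rad18, a ubiquitin ligase of damage tolerance, at -0.07.

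None of the 7 genes of the damage kinases and the MRN complex passed. Atm read 1349, 1202 and 1299 in control arrays and 1278, 1425 and 1076 after TDP-43 siRNA, and the highest and the lowest arrays were both in the TDP-43 siRNA group. Its difference was -0.03 (SE 0.10), and that of Atr was 0.04 (SE 0.11). The checkpoint kinases that they activate, Chek1 and Chek2, were at -0.05 and -0.14. In the MRN complex, which senses broken ends, the smallest p belonged to Rad50. Rad50 read 696, 630 and 565 in control arrays and 592, 564 and 492 after TDP-43 siRNA. These groups overlapped narrowly (log2 difference -0.19, SE 0.11, limma adjusted p = 0.493). Its partners Mre11a and Nbn were at 0.11 and -0.02.

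The 3 end joining genes all lay slightly below 0 and none passed. Xrcc6, the Ku70 subunit that binds broken ends, read 1498, 1464 and 1380 in control arrays and 1266, 1216 and 1335 after TDP-43 siRNA. Its groups did not overlap, but the difference of -0.18 (SE 0.07) had a limma adjusted p = 0.318 over all genes. Xrcc5, the Ku80 subunit, read 699, 705 and 681 in control arrays and 625, 635 and 662 after TDP-43 siRNA. Its groups were also separate, at -0.12 (SE 0.08, limma adjusted p = 0.574). Lig4, the ligase of this route, was at -0.13.

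None of the 8 genes of base excision and single-strand break repair passed. Their median was 0.05, and 2 of the 8 lay below 0, against 45.0% of all genes. Xrcc1, the scaffold of this route, had the smallest p of the 8. It read 896, 848 and 860 in control arrays and 888, 940 and 991 after TDP-43 siRNA, with a small overlap (log2 difference 0.11, SE 0.08, limma adjusted p = 0.595). Apex1, the endonuclease that cuts at abasic sites, read 1936, 2598 and 2355 in control arrays and 2494, 2156 and 2513 after TDP-43 siRNA. Its lowest and highest arrays were both controls, and the difference was 0.06. Parp1, the main sensor of DNA nicks, was at 0.06, Polb, the gap-filling polymerase, at 0.08, and Lig3, the ligase bound to XRCC1, at 0.03. The glycosylase genes Ogg1 and Ung were at 0.05 and -0.14, and Parp2 was at -0.04. The sign of Parp1, Parp2, Lig3, Apex1 and Ogg1 turned under at least 1 alternative.

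The 2 mismatch repair genes did not pass. Msh6, which recognises mismatches, read 1875, 1748 and 1600 in control arrays and 1610, 1887 and 1587 after TDP-43 siRNA, and its groups overlapped (log2 difference -0.04). Pms2, an endonuclease subunit, read 663, 604 and 498 in control arrays and 528, 559 and 493 after TDP-43 siRNA. It was at -0.15 (SE 0.11, limma adjusted p = 0.645). Among 6 nucleotide excision genes the median was 0.03. Ddb1, the ligase adaptor that works with DDB2 at ultraviolet lesions, read 2612, 2400 and 2293 in control arrays and 2305, 2423 and 2086 after TDP-43 siRNA. Its difference was -0.10 and that of its partner Ddb2 0.14. The lesion sensor Xpc was at 0.10 and Xpa at 0.06, while the nuclease subunit Ercc1 was at -0.02 and the helicase Ercc2 at -0.0037.

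Of the Fanconi anaemia genes, Fancd2, which is ubiquitinated at crosslinks, read 223, 236 and 216 in control arrays and 231, 200 and 198 after TDP-43 siRNA. Its difference was -0.10 (SE 0.12). Fanca, a subunit of the ligase complex, read 571, 439 and 399 in control arrays and 479, 453 and 403 after TDP-43 siRNA. The spread within its control group was wider than the difference of -0.06 between the groups. Neither gene passed (limma adjusted p = 0.782 for Fancd2 and 0.897 for Fanca).

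Several genes have more than 1 probe set, and these did not always move alike. Above the filter, 22 of the 42 genes had several probe sets that name them alone and 20 had one. Of the 82 probe sets, 2 passed in a limma fit over all 23433 probe sets, those of Bccip and Wrnip1, where 0.649% of all probe sets passed, and 0.508% in the lower direction. Without the intensity trend, 0 of the 82 passed in that fit, and 7 had an unadjusted p below 0.05. An unadjusted p below 0.05 was found for 7 of the 82 (8.54%), against 11.4% of all probe sets. Beside Bccip, Wrnip1 and Xrcc6 these were 2 of Rad54l, 1 of Chek1 and 1 of Rad18, which are named here after their values were seen.

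For Rad54l, the dimmer probe set 1423123_at read 152, 139 and 123 in control arrays and 248, 233 and 203 after TDP-43 siRNA. These groups were apart, and the difference was 0.68 (SE 0.14, limma adjusted p = 0.0719 over probe sets). The probe set 1423124_x_at read 148, 131 and 140 against 162, 223 and 175, at 0.38. The brightest, 1450862_at, read 600, 503 and 515 against 515, 645 and 353, at -0.13. The change on 1423123_at exceeded that on the brightest by 0.81 (SE 0.18, limma adjusted p = 0.322 over 10814 pairs). With the mean of its probe sets, Rad54l turned to 0.31 (limma adjusted p = 0.374). The sign given for this gene thus depends on the probe set.

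For Chek1, 1439208_at read 200, 240 and 182 in control arrays and 333, 266 and 289 after TDP-43 siRNA, at 0.49 (SE 0.14). The other probe sets of Chek1 were at -0.05 for the brightest, 1449708_s_at, and at -0.04 and -0.28. The difference of 0.54 between 1439208_at and the brightest had a limma adjusted p = 0.305. For Rad18, 1423318_at read 509, 501 and 482 in control arrays and 349, 420 and 405 after TDP-43 siRNA. It was at -0.34 (SE 0.10), and the other 3 probe sets of Rad18 were at -0.07, -0.21 and -0.16. For Brca1 the 4 probe sets lay between -0.20 and 0.10. Among 40 pairs from genes of the list, 0 passed in limma, as did 0% of all pairs, and 4 had an unadjusted p below 0.05 (10.0%), against 7.19% of all pairs. Which part of the transcript each probe set reads was not analysed here.

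**Figure D3:**
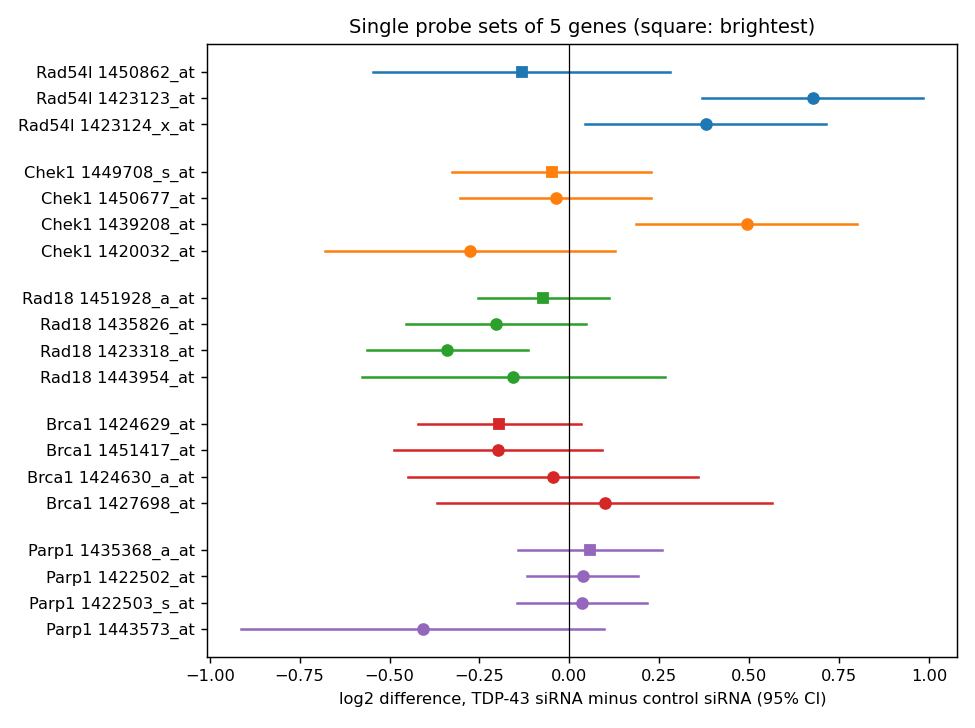
Log2 difference with 95% confidence interval (limma fit over all probe sets, n = 3 per group) for each probe set above the filter of Rad54l, Chek1, Rad18, Brca1 and Parp1; squares mark the brightest probe set of a gene. The dimmer Rad54l probe sets lie at 0.68 and 0.38 while the brightest is at -0.13, and the 4 Rad18 probe sets all lie below 0.

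Repair genes outside the list were taken from a second list of 103, sorted by the same roles, of which 90 were tested. None passed in limma in either direction, and 12 had an unadjusted p below 0.05 (13.3%), near the 12.6% of all genes. Their median difference was -0.04, with 61 of 90 below 0, and 45.0% of all genes lay below 0. Groups were separate in the lower direction for 16 (17.8%), against 8.32% of all genes, and in the higher direction for 2 (2.22%), against 9.98%. Neil1, a glycosylase for oxidised bases, had the smallest p. It read 479, 438 and 465 in control arrays and 340, 323 and 358 after TDP-43 siRNA. Its groups were well apart at -0.42 (SE 0.09), but the limma adjusted p was 0.0845, and with array weights 0.0465. Nhej1, an end joining scaffold, was dim, reading 112, 111 and 104 in control arrays and 69.1, 74.4 and 64.4 after TDP-43 siRNA (log2 difference -0.57, SE 0.17, limma adjusted p = 0.181).

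The remaining genes named from this second list did not pass either. Rpa3, a subunit of the single-strand binding complex, was at -0.36, and Gen1, which resolves crossed strands, at -0.33. At forks Timeless was at -0.29 and the annealing helicase Smarcal1 at -0.21. In damage signalling the histone gene H2ax was at -0.18 and the ubiquitin ligase Rnf8 at -0.22. Prkdc, the catalytic subunit of DNA-PK, was at -0.11, and Tdp2, which frees trapped topoisomerase, at -0.28. The mismatch genes Msh3 and Pms1 were at -0.09 and 0.09, and Uvssa and Ercc5 of nucleotide excision repair at 0.44 and -0.12. Fanci, the partner of FANCD2, was at -0.30 and Fancg at -0.20.

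**Figure D4:**
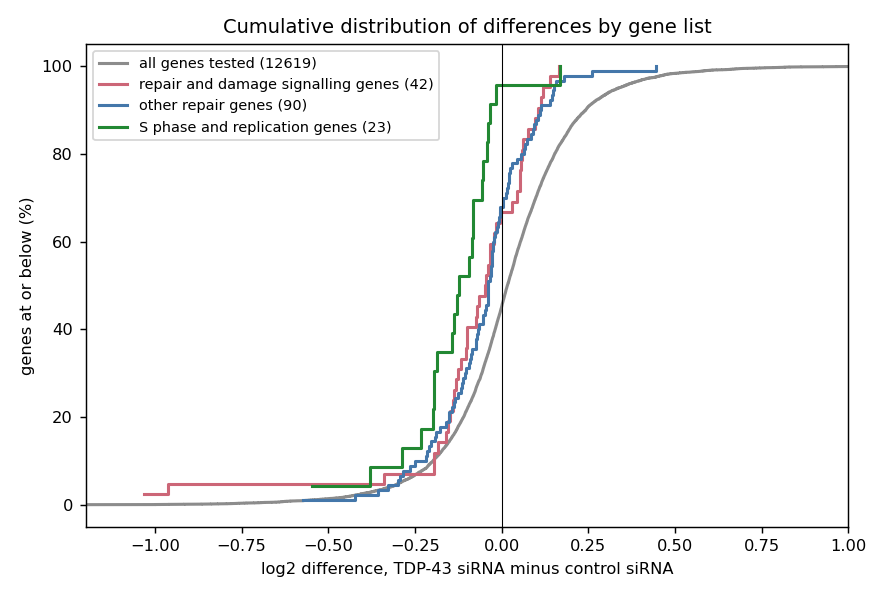
Cumulative share of genes (%) against the log2 difference after TDP-43 siRNA minus control siRNA, for all 12619 genes tested, the 42 repair and damage signalling genes, 90 other repair genes and 23 S phase and replication genes; the axis is drawn from -1.2 to 1. Both repair lists lie slightly left of all genes, with medians of -0.05 and -0.04 against 0.02, and the S phase list lies further left at -0.12.

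Some repair genes are transcribed mainly in S phase, so 23 tested genes of S phase and replication were measured beside the repair lists. Of these, 0 passed in limma, against 0.745% of all genes, and 8 had an unadjusted p below 0.05 (34.8%), against 12.6% of all genes. The median was -0.12, with 22 genes below 0 (95.7%), against 45.0% of all genes. Of the 8, 7 were lower and 1 was higher, E2f1, a transcription factor that drives S phase genes, which is named after its values were seen. E2f1 read 1262, 1344 and 1315 in control arrays and 1435, 1565 and 1418 after TDP-43 siRNA, with no overlap (log2 difference 0.17, SE 0.07, limma adjusted p = 0.365). Ccne1, the cyclin that drives entry into S phase, read 1687, 1668 and 1207 in control arrays and 1025, 1129 and 929 after TDP-43 siRNA. Its difference was -0.55 (SE 0.13, limma adjusted p = 0.104), and without control replicate 3 it passed at -0.70 (limma adjusted p = 0.00703). Gins1, a subunit of the replicative helicase, was at -0.38 (SE 0.12, limma adjusted p = 0.215).

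The list means differed between single arrays of a group as well as between the groups. Averaged over the 40 genes without Bccip and Wrnip1, control arrays 1 to 3 stood at 0.05, 0.01 and -0.0017 from each gene's mean over 6 arrays, on the log2 scale. TDP-43 siRNA arrays 1 to 3 stood at 0.0046, 0.03 and -0.09, so that replicate 3 was the lowest and the other TDP-43 siRNA arrays lay among the controls. For the 90 other repair genes the control arrays stood at 0.06, 0.02 and -0.00037 and the TDP-43 siRNA arrays at -0.02, -0.0088 and -0.05, so that here all TDP-43 siRNA arrays lay below all controls. S phase genes were also lowest on TDP-43 siRNA replicate 3, at -0.18, and highest on control replicates 1 and 2, at 0.13 and 0.12. Control replicate 3 was at -0.04, below both other TDP-43 siRNA arrays at -0.01. Over all genes tested, control arrays 1 to 3 stood at -0.04, 0.0073 and -0.0019. TDP-43 siRNA arrays 1 to 3 stood at 0.03, -0.0091 and 0.01. The list means were not corrected for these shifts, so the order of arrays that lie close together may change with them. Without TDP-43 siRNA replicate 3 the median of the 40 genes was -0.01 in place of -0.04, and without TDP-43 siRNA replicate 2 it was -0.09. The part of S phase genes, or of single arrays, in the repair gene values was not tested. Bccip and Wrnip1 were at -0.97 and -0.89 without TDP-43 siRNA replicate 3, and both passed (limma adjusted p = 0.00345 for each).

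**Figure D5:**
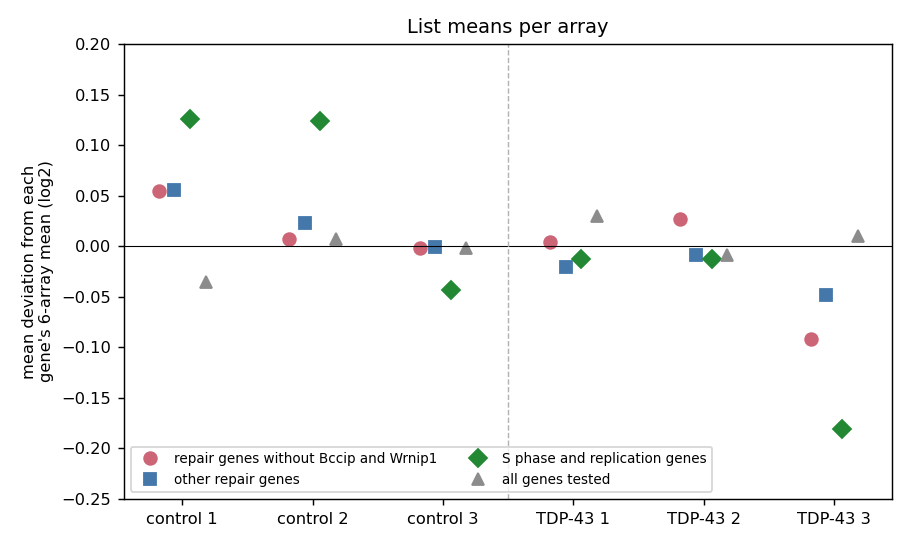
Mean deviation of 4 gene lists on each array from each gene's mean over the 6 arrays (log2), with control siRNA arrays left of the dashed line and TDP-43 siRNA arrays right of it. The 40 repair genes and the S phase genes are lowest on TDP-43 siRNA replicate 3, at -0.09 and -0.18.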

How the data were processed

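Signal intensities of 45101 probe sets on 6 arrays were deposited on a linear scale; the authors made them with MAS5, per the submitters' processing notes. Labelled cRNA was made from 100 ng of total RNA, per the labels' protocols. The MAS5 version and a genome build are not given in the sources used here.

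Gene names came from the platform annotation (34945 probe sets with 1 gene) and were updated through a RefSeq gene table of GRCm38.p6. After log2(signal + 12), control probe sets and the 40% with the lowest mean were left out. Each gene kept its brightest probe set. The comparison used limma 3.58.1 (R 4.3.3), with eBayes and an intensity trend. Tests were two-sided, adjusted by Benjamini-Hochberg over all 12619 genes, at a threshold of 0.05. Probe sets and pairs were fitted likewise, pairs without the trend. Steps were tested on simulated data.

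The genes followed, the further lists and the tests were chosen with earlier results of these data known. Array values are given for genes past the threshold or with an unadjusted p below 0.05, and for the smallest p and the brightest probe set of each role; Brca1, Brca2, Wrn, Xrcc5 and the second probe sets were added after their values were seen. From other lists, the 2 smallest p of each role are named. Alternatives varied the pseudocount, filter, normalization, variance model, weights, probe set choice, replicate block and threshold, and left out each array. Figures were drawn with matplotlib 3.10.9. The number of arrays limits the precision.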

Additional observations from a re-analysis of the deposited data

How the results depend on the processing

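The count of 2 repair genes past the threshold, Bccip and Wrnip1, held in all 18 alternatives, and the other 40 genes passed in none of those that tested them (Bard1, Rad52 and Ogg1 lay below the 60% filter), though 17 of them changed sign in at least 1. The count over all genes, 94, moved more: it was 51 with no filter, 12 with no intensity trend, 161 with array weights, 61 with the mean of probe sets and 208 at a threshold of 0.1. Leaving out each array in turn gave 31 to 253 genes, the most without control replicate 3. With no intensity trend, Tardbp, at -0.85, had a limma adjusted p = 0.0608, and 0 of 82 probe sets of the list passed in the fit over probe sets (7 had an unadjusted p below 0.05). With array weights, or at a threshold of 0.1, 1 of the other repair genes passed, Neil1. Deviations of same-numbered arrays correlated at -0.12, -0.14 and 0.24 for replicates 1, 2 and 3. The same correlation was not computed for arrays of different number, so these values do not settle whether the replicates are paired. With the replicate block 2 repair genes and 123 genes in all passed.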
